A study of Mus musculus with 5 samples.

Results

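NEUROD2 occupancy was described at 9 genes of the netrin system, the ligands Ntn1 and Ntn4 and the receptors Dcc, Neo1, Unc5a, Unc5b, Unc5c, Unc5d and Dscam, out of 21938 protein-coding genes of the annotation. The genes were listed by name for their role in netrin signalling, with earlier results of these data known, so their counts beside those of all coding genes are a description. A peak belonged to a gene when its midpoint lay in the gene or at most 50 kb from either end, and overlapping peaks were merged into regions. This gave 277 peaks in 152 regions, of which 99 held peaks of at least 2 antibodies, against 32261 such regions in the genome. Cortical chromatin of BALB/c mice at E14.5 was used, with the embryos of several mothers pooled for each precipitation, and no genotype, treatment or age differed between the libraries. Each of 3 antibodies against NEUROD2, called ab1 (mouse host), ab2 and ab3 (rabbit host), gave 1 sequenced library. Libraries made with GFP antibodies of the same hosts served as controls of the peak calling, ab2 and ab3 against the same one, and no peaks of their own were used here. There is therefore 1 condition, no contrast between groups and no test, and the 3 antibodies are the only repeated measurement. Peak lists hold no expression values, so the labelled tissue could not be set against marker genes, and occupancy is reported here without transcript levels.

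NEUROD2 is a basic helix-loop-helix transcription factor of differentiating cortical excitatory neurons, and proteins of this family bind as dimers to the E-box, the letters CANNTG. Netrins are secreted, laminin-related cues that steer axons and migrating neurons. DCC mediates mainly attraction, UNC5 receptors mediate repulsion alone or together with DCC, and the DCC relative neogenin and the adhesion molecule DSCAM also bind netrin. In the cortex this system is known for the crossing of the corpus callosum and for the placement of migrating neurons.

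The sequence at the strongest region of a gene shows what NEUROD2 was found on, and is printed for the genes whose strongest region lies outside exons with untranslated sequence, without Dcc. Each line is 200 bases of GRCm38 (mm10) on the + strand around the midpoint of the region with the highest summed score, with every CANNTG in capitals. Unc5a has a line more, added after its midpoint window was seen to hold no site, for the middle of its highest peak, which lay 675 bp from the midpoint of a region 2535 bp wide.
Ntn4, chr10:93633694-93633893: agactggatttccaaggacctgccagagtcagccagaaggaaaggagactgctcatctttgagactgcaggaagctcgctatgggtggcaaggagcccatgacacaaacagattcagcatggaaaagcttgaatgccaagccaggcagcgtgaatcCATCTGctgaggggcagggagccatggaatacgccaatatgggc
Neo1, chr9:59059584-59059783: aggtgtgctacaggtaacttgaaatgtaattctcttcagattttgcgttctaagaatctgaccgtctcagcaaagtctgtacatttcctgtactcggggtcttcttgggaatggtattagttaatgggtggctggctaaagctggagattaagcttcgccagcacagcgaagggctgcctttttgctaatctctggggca
Unc5a, midpoint, chr13:54935658-54935857: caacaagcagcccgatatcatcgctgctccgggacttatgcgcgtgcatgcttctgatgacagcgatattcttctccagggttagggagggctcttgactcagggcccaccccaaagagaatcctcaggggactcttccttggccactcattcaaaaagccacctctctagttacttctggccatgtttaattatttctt
Unc5a, highest peak, chr13:54936333-54936532: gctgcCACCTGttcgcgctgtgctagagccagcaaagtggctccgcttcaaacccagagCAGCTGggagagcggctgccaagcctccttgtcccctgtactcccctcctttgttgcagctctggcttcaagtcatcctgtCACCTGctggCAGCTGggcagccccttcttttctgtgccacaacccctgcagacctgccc
Unc5b, chr10:60801402-60801601: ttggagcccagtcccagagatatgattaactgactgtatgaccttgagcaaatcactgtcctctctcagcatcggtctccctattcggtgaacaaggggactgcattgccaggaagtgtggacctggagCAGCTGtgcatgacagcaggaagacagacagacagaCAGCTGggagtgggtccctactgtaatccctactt
Unc5c, chr3:141797854-141798053: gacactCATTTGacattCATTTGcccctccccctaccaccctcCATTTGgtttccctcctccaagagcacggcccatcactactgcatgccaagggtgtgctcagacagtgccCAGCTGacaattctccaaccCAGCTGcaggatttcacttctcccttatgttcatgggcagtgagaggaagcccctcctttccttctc
Unc5d, chr8:28770610-28770809: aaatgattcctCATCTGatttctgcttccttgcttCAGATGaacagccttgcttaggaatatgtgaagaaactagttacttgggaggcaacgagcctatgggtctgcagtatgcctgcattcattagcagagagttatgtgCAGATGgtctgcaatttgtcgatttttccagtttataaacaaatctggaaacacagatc
Dscam, chr16:97002514-97002713: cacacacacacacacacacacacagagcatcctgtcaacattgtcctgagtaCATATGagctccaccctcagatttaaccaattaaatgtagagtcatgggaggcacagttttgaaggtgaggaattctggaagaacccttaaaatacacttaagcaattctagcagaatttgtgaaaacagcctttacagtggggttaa
The windows differed in their E-boxes. That of Unc5c held 5 and that of Unc5d 3, those of Ntn4 and Dscam held 1 each, and those of Neo1 and of the Unc5a midpoint held none. In the Unc5b window both sites were CAGCTG, 32 and 68 bp from the midpoint. Both windows without a site belonged to wide regions, which held 11 CANNTG sites over 2103 bp at Neo1 and 31 over 2535 bp at Unc5a. No count for other sequence of such widths is given here to set beside these. At the highest Unc5a peak there were 4, of which 2 were CAGCTG. The middle of the highest Neo1 peak lay 34 bp from the midpoint, and the 200 bp around it held none either. These letters are those of the reference strain, and BALB/c differences from it were not seen.

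At the ligands the peaks were unequal. Ntn1, the founding attractant of commissural axons, held 6 peaks with ab1 and none with ab2 or ab3, and so no region with at least 2 antibodies. Its ab1 peaks had scores between 51.3 and 135.7, where the score is 10 times the −log10 p-value given by MACS and starts at 50. A region of 2 antibodies came into the Ntn1 window only when 100 kb was taken on either side, which gave 2. Ntn4, a netrin of basement membranes that lies closer to laminin beta chains, held 12 peaks with ab1, 6 with ab2 and 1 with ab3. These formed 12 regions, 6 of them with at least 2 antibodies. The strongest, at chr10:93633310-93634277, lay 7.26 kb upstream of the transcription start site (TSS), with a score of 1696 with ab1, 989 with ab2 and 99.3 with ab3. The other 5 regions of at least 2 antibodies lay 4844 bp upstream and in introns 2, 5 and 7, with ab1 scores from 107.1 to 243.2. At the Ntn4 TSS itself there was a peak of ab1 alone.

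**Figure D1:**
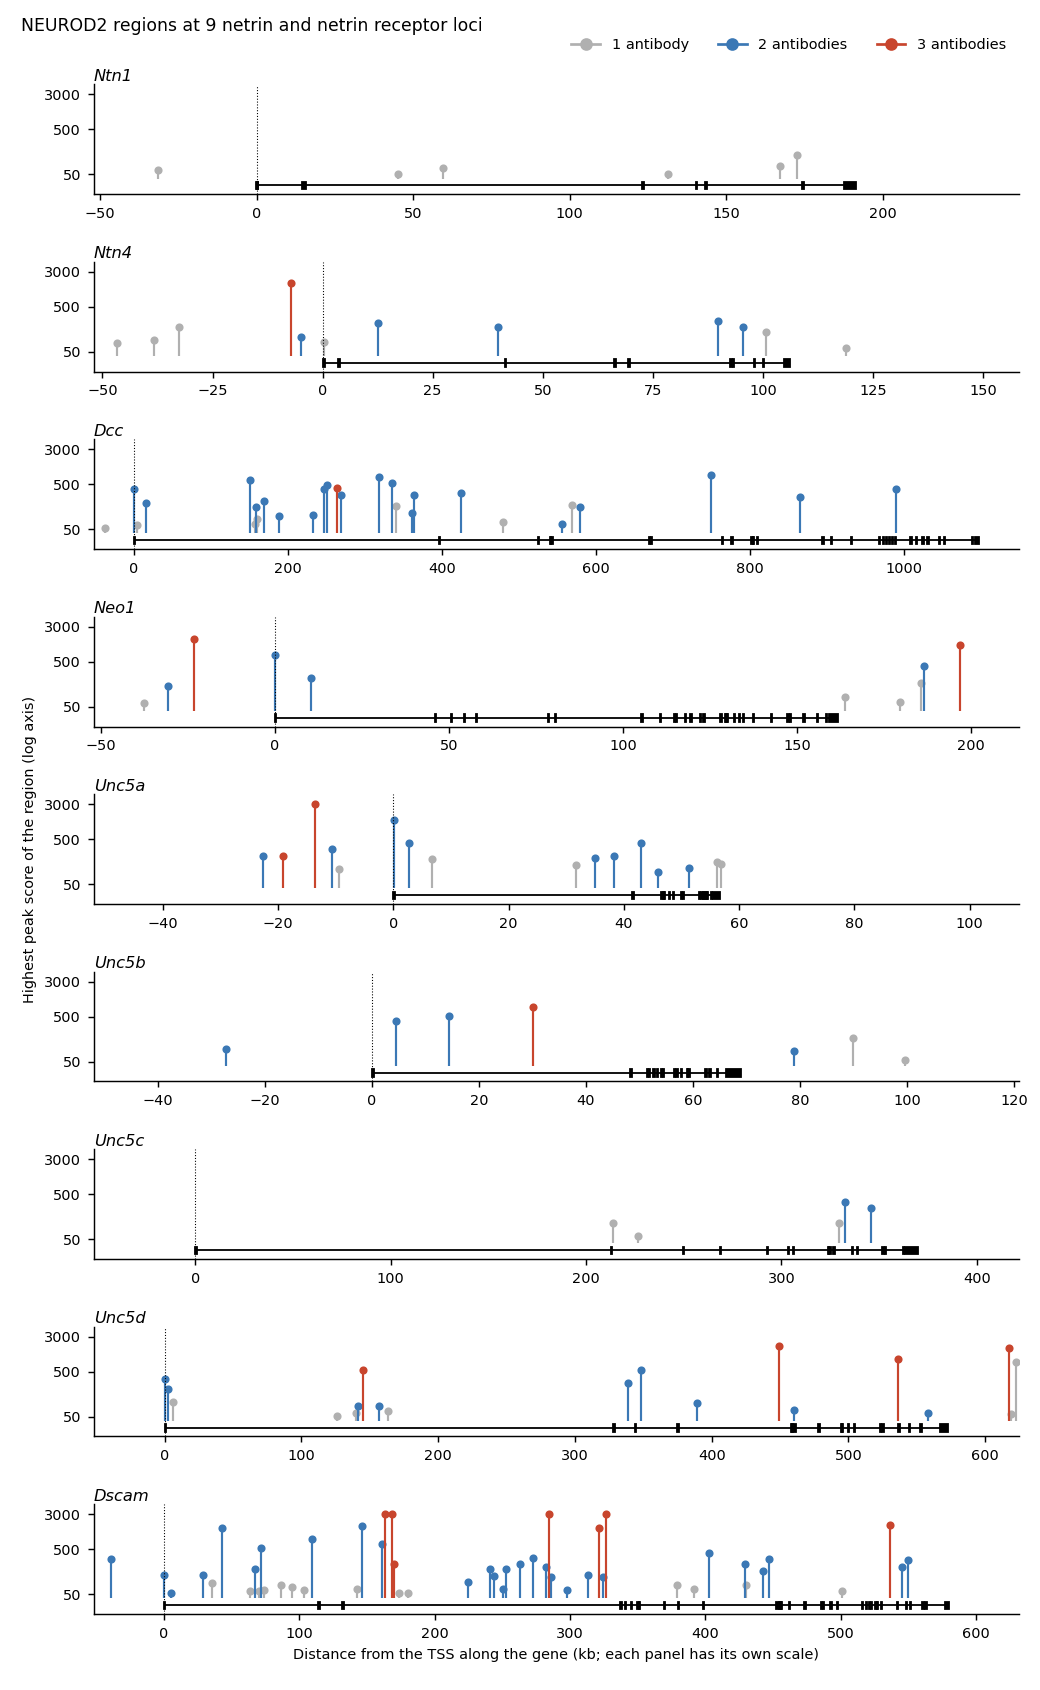
Regions at the 9 loci, with the distance from the TSS along the gene in kb on the horizontal axis, on a scale of its own in each panel, and the highest peak score of the region on a logarithmic vertical axis. Grey, blue and red stems are regions with 1, 2 and 3 antibodies, the black line is the gene with its exons as boxes, and the dotted line is the TSS. Ntn1 has grey stems only, the 21 blue and red stems of Dcc lie inside the gene, and 4 of the 35 at Dscam reach 3100, as does 1 at Unc5a.

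Dcc, the gene of the attractant receptor, had many regions of moderate score. It lies at chr18:71253634-72351069 on the − strand and held 28 peaks with ab1, 22 with ab2 and 1 with ab3, in 21 regions with at least 2 antibodies. All 21 lay in introns, 15 of them in the first intron, which is 395.3 kb long. The highest score was 808 with ab1 and 433.6 with ab2, in intron 7, in a region without a peak of ab3. The peak of ab3 at Dcc had a score of 78.8 and lay in the first intron, 263.3 kb from the TSS, in a region with 406.5 for ab1 and 240.9 for ab2. A region 3203 bp wide lay over the start of the gene with its midpoint 1066 bp inside, and the middle of its highest peak lay within 1 kb of the TSS.

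Neo1 encodes neogenin, a receptor for netrins and for repulsive guidance molecules. It held 11 peaks with ab1, 7 with ab2 and 3 with ab3, in 6 regions with at least 2 antibodies. The strongest, at chr9:59058633-59060735, lay 23.2 kb upstream and had scores of 1631, 591 and 84.1 for ab1, ab2 and ab3. Another region of all 3 antibodies, with 1171, 443.4 and 159.9, lay downstream of the gene and 16.4 kb from the TSS of another coding gene, the channel gene Hcn4. The order of these 2 regions thus differed by antibody, since ab3 was higher at the one where ab1 and ab2 were lower. Only 1 of the 6 regions was intronic, and 1 covered the TSS.

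The UNC5 receptors, which carry death domains and can signal without their ligand, ranged from the densest locus to one of the sparsest. Unc5a held 17 peaks with ab1, 11 with ab2 and 2 with ab3 in a window of 156.6 kb, and 11 regions with at least 2 antibodies. Its strongest region, at chr13:54934491-54937025 and 13.7 kb upstream of the TSS, had 3100 for ab1, 1648 for ab2 and 333.1 for ab3. A score of 3100 is shared by 661 peaks of ab1 and 62 of ab2, while the highest score in both lists is 3233. Values of 3100 may therefore be capped, which was not tested, and do not rank regions among themselves. From 22.5 kb upstream to 2.68 kb inside the gene, at chr13:54926550-54952562, lay 6 of its 11 regions. Unc5b, known for its role in blood vessels, held 7, 5 and 1 peaks with ab1, ab2 and ab3, in 5 regions with at least 2 antibodies. All 3 of its intronic regions were in the first intron, and the strongest, 30.1 kb from the TSS, had 841.5, 498.6 and 125 for ab1, ab2 and ab3. One more of its regions, 78.9 kb from the Unc5b TSS, lay 99 bp from the TSS of the nucleoside transporter gene Slc29a3.

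Unc5c held the fewest regions of the UNC5 genes. It had 5 peaks with ab1, 2 with ab2 and none with ab3, and its 2 regions with both ab1 and ab2 lay in introns 10 and 12, 332.7 and 345.8 kb from the TSS. Their scores were 332.4 and 248.1 with ab1 and 77.0 and 70.7 with ab2, and the first intron of 212.1 kb held no such region. Unc5d, a receptor of migrating cortical neurons that also binds FLRT proteins, held 18 peaks with ab1, 15 with ab2 and 4 with ab3. Of its 13 regions with at least 2 antibodies, 10 lay in introns. The strongest was in intron 4 at chr8:28770091-28771329, 448.9 kb from the TSS, and scored 1903 with ab1, 1111 with ab2 and 177.8 with ab3. A region downstream of the gene came next, with 1735, 1185 and 136.6, and there ab2 was higher than at the intron 4 region. The highest score of a region with 1 antibody alone was also there, 826.6 with ab1.

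Dscam, an immunoglobulin superfamily receptor of neuronal self-avoidance that also binds netrin, held the most. Its window of 679.9 kb held 47 peaks with ab1, 38 with ab2 and 8 with ab3, and 35 regions with at least 2 antibodies, 7 of them with all 3. More regions were counted at 11 other coding genes. In intron 3, which is 205.4 kb long, lay 20 of the 35, or 9.74 per 100 kb, and 9 of the 35 lay within chr16:96884263-96930008. The highest by summed score and by ab2, but not by ab3, lay at chr16:97001715-97003513 and had 3100 for ab1, 2958 for ab2 and 420.1 for ab3. In the same intron 3 more regions reached 3100 with ab1, with 2616, 2589 and 2000 for ab2 and 524.6, 493.2 and 439.7 for ab3. Those 4 regions held the 4 highest scores of ab2 and of ab3 at the 9 loci, while the 3100 of ab1 was shared with the Unc5a region. Of the other regions of all 3 antibodies with a score of at least 1000, that in intron 3 had 1462, 733.2 and 78.6 for ab1, ab2 and ab3, and that in intron 27 had 1706, 1034 and 85.2.

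**Figure D2:**
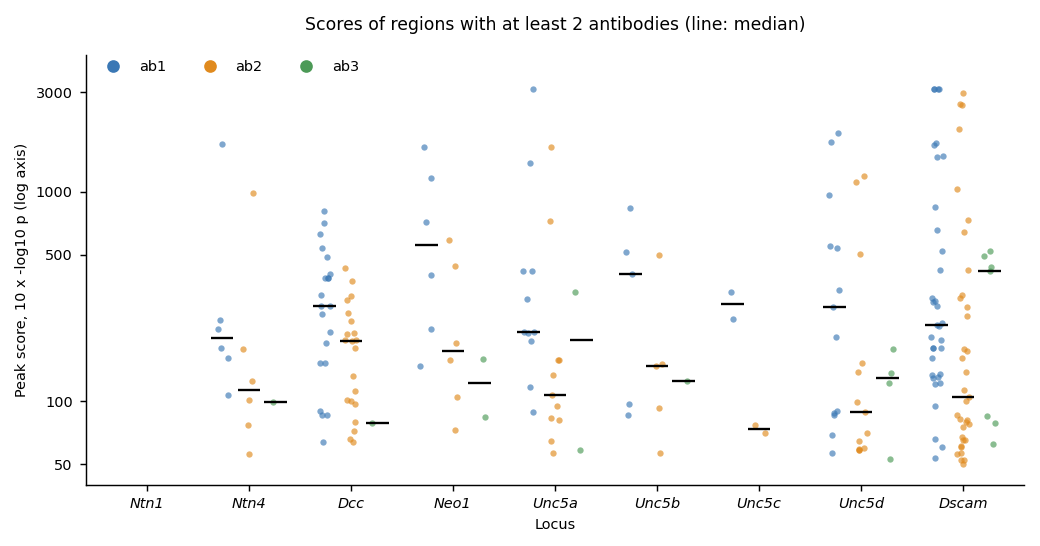
Peak scores of ab1 (blue), ab2 (orange) and ab3 (green) in the regions with at least 2 antibodies, on a logarithmic axis, by locus, with a line at the median. Ntn1 has no point, ab3 has points in 18 of the 99 regions, and the points of ab1 reach 3100 at Unc5a and Dscam.

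Over all 9 loci, ab1 gave 151 peaks, ab2 106 and ab3 20, which is 0.291%, 0.300% and 0.268% of the peaks of each antibody. Every region with at least 2 antibodies held both ab1 and ab2, and 18 also held ab3. Left with 2 antibodies, 19 regions were found without ab1, 18 without ab2 and 99 without ab3. The share with all 3 was 18.2% (95% Wilson interval 11.8 to 26.9), beside 22.2% of all regions with at least 2 antibodies. The median score in the 99 regions was 262.5 with ab1 and 112.9 with ab2, and ab1 was the higher in 91. Log10 scores of the pair had a Pearson r of 0.901 and ranks a Spearman rho of 0.821 over these 99 regions, which share the libraries and are not replicates. Regions with a peak of only 1 of the 2 antibodies have no pair of scores and were left out. Peaks of ab3 fell where ab1 was high, in 15 of the 28 regions with an ab1 score of at least 500 and in 3 of the other 71. Of the 15 regions with a score of at least 1000 with any antibody, 12 held all 3. The 53 regions with a single antibody were 49 of ab1 and 4 of ab2, with median scores of 76.4 and 60.9. All intervals here cover counting error only, and the depth of the libraries cannot be read from peak lists.

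By regions with at least 2 antibodies per 100 kb of window, the order was Unc5a at 7.02, Dscam at 5.15, Unc5b at 2.96, Ntn4 at 2.91, Neo1 at 2.29, Unc5d at 1.93, Dcc at 1.75, Unc5c at 0.426 and Ntn1 at 0. The median of 2.29 lay beside 0.9499 over all coding genes and 1.31 over the 2434 that span at least 100 kb. Without ab1 or without ab2 it was 0.592, beside 0 over all coding genes and, over the long ones, 0.2203 without ab1 and 0.222 without ab2. With all antibodies 7 of the 9 genes were above both medians, and Ntn1 and Unc5c were below both. Unc5a was above 98.6% of coding genes and Dscam above 95.7%, but Dcc, with its 21 regions, only above 64.5%. The antibodies taken singly gave medians of 4.14, 2.67 and 0.592 peaks per 100 kb for ab1, ab2 and ab3, a mean of 2.47 ± 1.78 (SD, n = 3 antibodies). With each antibody Unc5a was the densest locus and Dscam next, while the neighbours in the middle of the order changed places. With ab1 Ntn4 lay above Unc5b, at 5.82 and 4.14, and with ab2 the values were 2.91 and 2.96, so the order of these loci was not resolved. At least 1 region with at least 2 antibodies lay at 8 of the 9 genes, beside 67.6% of coding genes, and a region with all 3 antibodies at 7 of the 9, beside 26.7%. Of the 9 genes 7 span at least 100 kb, and these 2 counts were not adjusted for gene length.

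**Figure D3:**
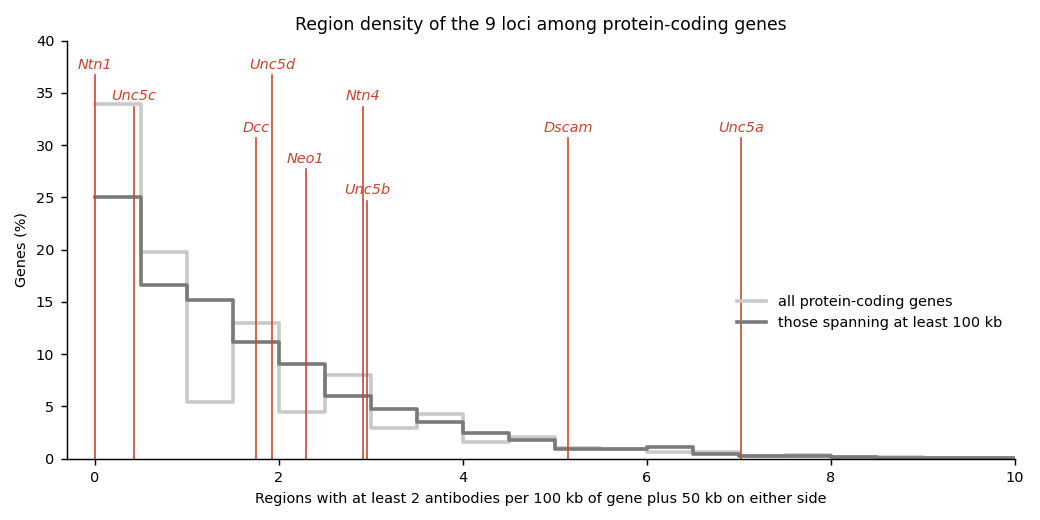
Share of protein-coding genes (light grey) and of those spanning at least 100 kb (dark grey) by the number of regions with at least 2 antibodies per 100 kb, in bins of 0.5 up to 10, with red lines at the 9 genes. The height of a red line only makes room for its name. Unc5a at 7.02 and Dscam at 5.15 stand in the right tail, and Ntn1 at 0 and Unc5c at 0.426 in the lowest bin.

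Distances from the start differed between long and short loci, and the window rule itself bounds them by gene length. Over all 99 regions the median distance from the midpoint to the TSS was 186.5 kb, and 68 of the 99 regions (68.7%) were over 50 kb away. Dscam, Dcc and Unc5d held 69 of the 99 regions and 60 of these 68, with median distances of 252.6, 269.2 and 348.3 kb. At Unc5a 10 of 11 regions lay within 50 kb of the TSS, at Unc5b 4 of 5, and at Ntn4 and at Neo1 4 of 6, with medians between 22.5 and 27.3 kb. Both regions of Unc5c lay farther. In introns of the gene lay 80 regions, 80.8% (72.0 to 87.4), beside 45.2% of all regions, which lay in an intron of any coding gene. The share at the 9 loci is bound to the choice of a window around long genes and was 96.4% inside the genes alone. Upstream lay 10 regions, downstream 4 and in exons 5, of which 4 covered the TSS and 1 lay in the coding exon 7 of Unc5d. For 84 regions the TSS of the gene was the closest coding TSS, and for 15 it was that of another gene, among them 7 at the 3′ part of Dscam, 4 at Unc5a and 2 downstream of Neo1.

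Within 1 kb of the TSS lay a region at 4 of the 9 genes, Neo1, Unc5a, Unc5d and Dscam, beside 20.8% of coding genes. Scores of ab1 and ab2 were 1376 and 726.4 at Unc5a and 717.5 and 156.7 at Neo1. They were 341.5 and 89.2 at Unc5d and 131.3 and 56.9 at Dscam. The Dscam start was thus weak where the introns of the gene were strong, and the Unc5a region was the strongest of the 4. None of the 4 regions held a peak of ab3, so the count was 0 without ab1 or without ab2. It was 2 with a score of at least 100 and 5, with Dcc added, by the middle of the highest peak. None of the 4 held a CANNTG in its central 200 bp, where the share of G and C was between 69.0% and 83.5%. Over all 4102 regions within 1 kb of a coding TSS, 7.87% held all 3 antibodies and 51.0% a CANNTG, and the median share of G and C was 68.0%.

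A score per gene summed the regions closest to its TSS among coding genes, each with a weight that was lower the farther it lay. The study also summed weights that fall with distance to the closest TSS. The restriction to coding genes and the exponential weight with a decay over 5000 bp were chosen here and no random score was subtracted, so the values are on another scale than the study's. It was 1.78 at Unc5a, 1.60 at Unc5d, 1.35 at Dscam and 1.12 at Neo1. It was 0.846 at Dcc, 0.696 at Ntn4 and 0.473 at Unc5b, and was near 0 at Unc5c and 0 at Ntn1. The 4 genes with a region at the TSS were those above 1.08, the threshold set 1 SD above the mean of genes that have a region, beside 4.24% of coding genes. A region at the TSS has a weight close to 1, so the 2 counts are not separate evidence. By the middle of the highest peak Dcc also had a region at the TSS, but its score of 1.01 stayed below the threshold. Without ab1 or without ab2 no gene was above it, and with a score of at least 100 there were 2, Neo1 and Unc5a. With a decay length of 50000 bp 5 genes were above the threshold computed in that setting, with Ntn4 and Unc5b in and Unc5d out. Nhlh2, the positive control of the study, had a score of 2.48, and its region 85 bp from the TSS had 158.4 with ab1 and 152.8 with ab2.

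The extended E-box is the core CAGATG, the core CAGCTG, the core CATATG or the core CATCTG, each followed by G or T, on either strand. Of the 99 regions 69 held it in their central 200 bp, 69.7% (60.0 to 77.9), beside 59.6% of all regions. Regions near a TSS hold it less often (20.8% of the 4102 within 1 kb of a coding TSS). Only 4 of the 99 lay within 1 kb of the TSS of their own gene. Of the regions farther from that TSS the share was 72.6% (62.9 to 80.6) at the 9 loci. In the genome it was 65.3% of the regions farther from any coding TSS, which lies inside the interval. The groups are not defined alike, since the Unc5b region 99 bp from the TSS of Slc29a3 counts as farther at the 9 loci. In windows of the same length 1000 bp beyond the ends of the regions the shares were 23.2% (16.0 to 32.5) and 28.3% (20.4 to 37.8), and over all regions 22.3% on both sides. The interval of the centres did not overlap those of the flanks. By gene it was in 26 of 35 regions at Dscam, 17 of 21 at Dcc, 8 of 11 at Unc5a, 8 of 13 at Unc5d, 5 of 6 at Ntn4, 3 of 6 at Neo1, 1 of 5 at Unc5b and 1 of 2 at Unc5c. Regions with all 3 antibodies held it in 13 of 18 cases, those with 2 in 56 of 81 and those with 1 in 37 of 53. These shares of 72.2%, 69.1% and 69.8% lay inside each other's intervals. In the 69 regions with a site in the central 200 bp, the closest lay at a median of 33 bp from the midpoint. With the other 30 regions counted as farther, the median over all 99 was 56 bp.

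**Figure D4:**
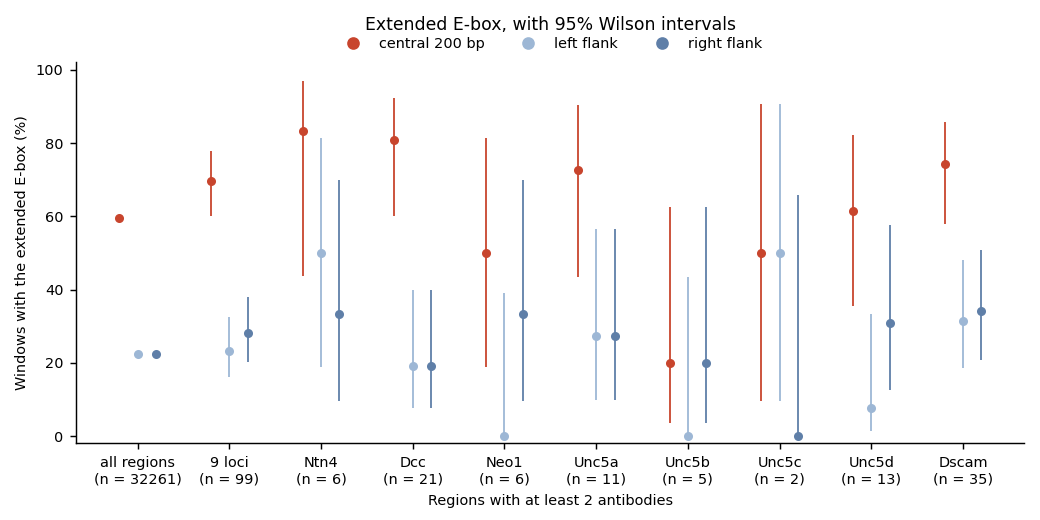
Percent of 200 bp windows with the extended E-box in the centre of regions (red) and in the flanks on the side of lower (light blue) and higher (dark blue) coordinates, with 95% Wilson intervals, for all regions, the 9 loci together and each locus with its number of regions. The centre at the 9 loci is at 69.7% and the flanks at 23.2% and 28.3%, and the intervals of single loci with 2 to 6 regions are wide.

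Counting CANNTG of any kind in the centres, CAGATG was the most frequent core, in 44.4% of the 99 regions (35.05 to 54.3) beside 43.1% of all regions. CAGCTG was in 32.3% beside 28.1%, CACATG in 20.2% beside 16.8% and CATATG in 17.2% (11.01 to 25.8) beside 11.7%. CACCTG was in 12.1% beside 18.04%. The interval of each of these 5 cores included the share over all regions. CACGTG, a core of other helix-loop-helix proteins, was in 0 of the 99, which allows a share of up to 3.03% (3 counts) or, by the Wilson interval, 3.74%, beside 3.80% of all regions.

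Other genes of netrin signalling were taken from a list of 31, with other netrins, including the netrin-G genes whose products bind other receptors, ligands of the receptors above, coreceptors and netrin-G receptors, and cytoplasmic effectors. All 31 held a region with at least 2 antibodies (67.6% of coding genes), 217 regions in all, with a median of 2.69 per 100 kb, and 20 held a region with all 3 (26.7% of coding genes). A region lay within 1 kb of the TSS at 12 of the 31 (20.8% of coding genes), and 2 were above the score threshold (4.24% of coding genes), the ligand gene Rgmb and the ubiquitin ligase gene Trim67, named after their values were seen. The most regions were at Fyn, a kinase recruited by DCC, with 23, at Dscaml1, the paralog of Dscam, with 21, and at Dock1, an activator of the GTPase Rac, with 15. At Fyn the highest scores were 3100 with ab1, 2776 with ab2 and 330.7 with ab3. By role, the 9 netrin and ligand genes had a median of 2.84 regions per 100 kb, the 3 coreceptor and netrin-G receptor genes 3.72 and the 19 effectors 2.49. Among other guidance systems, 10 Slit, Robo and srGAP genes held 117 regions with a median of 3.38 per 100 kb, and 11 plexin and neuropilin genes held 69 with a median of 3.19. The median of the 9 netrin and receptor genes was below those of these groups, with the quartiles of all coding genes at 0 and 2.35.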

How the data were processed

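Immunoprecipitated chromatin of E14.5 cortex was sequenced by the authors, who mapped reads to mm10 with Bowtie, removed duplicates and reads with several positions, and called peaks with MACS for each antibody, with the GFP library of its host as control. The deposited files give peak positions and, as a score, 10 times the −log10 p-value of MACS, not scaled by the authors between libraries. From these, peaks sharing at least 1 bp were merged, and midpoints were placed on the longest-span transcripts of GENCODE M21 (GRCm38), positions counting from 1. Of 6 promoter sequences compared, 6 equalled the genome. Python 3.11.15, numpy 2.4.6, scipy 1.17.1 and samtools 1.23.1 were used, and the merging, scoring and motif steps were tested on simulated data. The genes and gene lists were chosen with earlier results of these data known. All 9 genes were named, of the pathway list the 3 genes with most regions and any with none, and of the regions the highest at each gene, those within 1 kb of a TSS and those of all 3 antibodies with a score of at least 1000. Alternatives were a score of at least 100, an overlap of 50%, the middle of the highest peak, each antibody left out, other windows, decay lengths, gene types, TSSs and motif settings. Protein sequences, reads and control libraries were not used here.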

Additional observations from a re-analysis of the deposited data

How the results depend on the processing

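No count of the text comes from a test, so the alternatives give values only, and 31 of 48 for counts and shares stayed near the reported value (within 1.5 times for counts, inside the interval for shares). The 8 for the median density are given as values only, since the SD over antibodies is of peaks of single lists that differ in length and not of this density. The 48 include settings with little or no room to move. The middle of the highest peak does not enter the counts of regions, and leaving out ab3 keeps every region with ab1 and ab2. With a score of at least 100 there were 56 regions with at least 2 antibodies and 10 with all 3, and 2 genes, Neo1 and Unc5a, with a TSS region and above the score threshold. Leaving out an antibody gave between 18 and 99 regions, 18 without ab2, 19 without ab1 and 99 without ab3. It gave between 0 and 4 genes with a TSS region and between 0 and 4 above the threshold, 0 without ab1 or without ab2. With peaks of the gene span alone, an alternative added after the data were seen that leaves out peaks with midpoints upstream of the TSS, 2 genes, Unc5d and Dscam, had a TSS region. With an antibody left out, the intronic share was between 63.2% and 80.8% and the E-box share between 68.4% and 77.8%. The median density was then between 0.592 and 2.29 per 100 kb, lowest without ab1 or ab2. The other density alternatives gave between 1.78 and 2.29. The intronic share was 96.4% in the genes alone and 67.2% with 100 kb on either side. The E-box share was 89.9% with CANNTG, beside 83.7% of all regions, and 92.9% over whole regions. The regions of at least 2 antibodies thus rest on ab1 and ab2, since ab3 alone never added one. No paired analysis was possible because the libraries form 1 group and no result comes from a test. Each antibody has 1 library, so weak regions cannot be told apart from differences in depth or antibody.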

Other observations

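Beside the starts of the 9 genes, regions at these loci also lay within 200 bp of the starts of other annotated genes, which were looked up after the values had been seen. The Dscam region in intron 27, with scores of 1706, 1034 and 85.2 for ab1, ab2 and ab3, had its midpoint 56 bp from the start of a gene for an antisense transcript. A Dscam region in intron 11, with 298.5 for ab1 and 50.01 for ab2, lay 140 bp from the start of another non-coding transcript. At Unc5a, the region 19.1 kb upstream, with 212.2, 157.5 and 58.5 for ab1, ab2 and ab3, lay 84 bp from the start of a lincRNA gene. At Ntn1, the peak of ab1 upstream of the gene, with a score of 60.8, had its midpoint 1 bp from the start of Pik3r5, which encodes a regulatory subunit of a phosphoinositide 3-kinase.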
